A study of Mus musculus with 6 samples.

Results

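The nuclear-encoded subunits of respiratory complex I were measured in red cell precursors with and without Rb, the retinoblastoma protein that holds cells back from S phase. They were taken as every gene whose symbol begins with Ndufa, Ndufb, Ndufc, Ndufs or Ndufv and a digit, with Ndufab1 added and the assembly factors left out. Of the 18192 genes that had a probe set of their own on the array, 36 met this rule, 6 of them core subunits and 30 accessory. Ndufa11, Ndufs6, Ndufb4b and Ndufb4c, whose probe sets each carry several gene names, were not analysed here. Bone marrow cells positive for CD71, the transferrin receptor, and for the red cell antigen Ter-119 were sorted from mice, and their RNA was read on 6 single-colour arrays. The 3 Rb-null samples were EpoR-GFPcre/+ with Rb fl/fl, and the 3 controls were EpoR-GFPcre/+ with Rb fl/+. Both groups therefore carried Cre at 1 allele of the erythropoietin receptor locus and at least 1 floxed Rb allele, so the comparison is against cells that can also lose an Rb copy. Neither the age of the animals nor whether the arrays of a group came from separate animals was given in the sources used here, so a p-value reflects only how much these samples vary, and that variation may be technical.

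Complex I is the entry point of the respiratory chain. Its matrix arm takes electrons from NADH through a flavin and a chain of iron-sulfur clusters to ubiquinone, and its membrane arm pumps protons. Core subunits carry the chemistry and are conserved from bacteria, and accessory subunits surround and stabilise them. Erythroid precursors depend on mitochondria for heme synthesis and later clear them, so mitochondrial genes are regulated as these cells mature. The series title ties leaving the cell cycle to mitochondrial biogenesis, and the comparison here asks how the genes of this respiratory complex differed between the groups.

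Values below are normalised intensities in arbitrary units, and fold changes are log2 differences, Rb-null minus control, on log2(intensity + 16). Arrays are numbered as in the sample titles and always listed in the order 1, 2 and 3, and arrays of the same number are called a pair because they resembled each other. Median deposited intensities ran from 23.3 to 31.2, and the small number of arrays, 3 a group, limits the precision. The 2 arrays numbered 3 stood apart, with 18S ribosomal control probe sets at 1231 and 542 against 32.6 to 66.2 on the other 4. Rb1 itself read 1553 to 2923 in controls and 3092 to 4334 in Rb-null samples, without overlap and higher in the latter, by 0.57, 0.69 and 0.99 on the log2 scale in pairs 1, 2 and 3. It did not pass limma's test (adjusted p = 1.00), but passed with the replicate block, a variance trend and robust moderation (limma adjusted p = 0.0237). Where its probe set lies relative to the floxed exons is not known here, so it does not check the labels. Of 10 erythroid markers 6 were tested, and their summed intensity was 31018 to 34419 in controls and 32345 to 34626 in Rb-null samples. Their median log2 fold change was 0.04, with 2 of 6 negative. Klf1 and Tfrc were higher in each pair, Klf1 by 0.57, 0.31 and 0.49 with overlapping groups. Alas2, the first enzyme of heme synthesis, read 8861 to 10975 on the 6 arrays and was lower in each pair. Although the cells were sorted for CD71 and Ter-119, the granulocyte gene S100a8 read 9383 to 11669, at the top of the range of tested genes. Epor, whose locus carries the Cre, ran from 235 to 2358 and did not follow the groups.

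Complex I subunits were lower in Rb-null cells nearly throughout. All 35 subunits bright enough to be tested had a negative log2 fold change, against 54.6% of all 13232 tested genes, and without a filter on dim probe sets all 36 did. Their median log2 fold change was -0.64, against -0.04 over all tested genes, and single subunits ran from -1.04 for Ndufa3 to -0.00 for Ndufs8. The median was -0.47 in pair 1, -0.57 in pair 2 and -0.81 in pair 3, so each pair showed the same direction. A log2 fold change of -0.5 or less was found in 23 of 35, 65.7% against 8.25% of all tested genes. In each of the 3 pairs 32 of 35 subunits were lower, 91.4% against 24.1% of all tested genes. The exceptions were Ndufa4l2, Ndufb6 and Ndufs8. On the deposited intensities, before any normalisation, 29 of 35 were lower in each pair, against 23.4% of all genes.

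No single subunit passed the test over all genes. With limma's 2-sided moderated test and Benjamini-Hochberg adjustment 0 of 35 subunits and 0 of 13232 genes (0% called) reached adjusted p under 0.05, and the lowest adjusted p of a subunit was 0.582, for Ndufa3. At an unadjusted p under 0.05 limma found 11 subunits lower and 0 higher, and over all genes 1.51% lower and 2.55% higher. With the replicate number as a block these counts were 26 subunits lower and 0 higher, against 9.14% and 7.77% of all genes, and again 0 genes passed after adjustment (lowest limma adjusted p of a subunit 0.0873). A limma fit with the block, a variance trend and robust moderation called 11 subunits, all lower, and 1.39% of all genes lower and 2.18% higher. Control and Rb-null values did not overlap for 10 subunits, 28.6% of them, all lower in Rb-null cells, where 4.78% of all genes did so in that direction and 5.13% in the other.

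**Figure D1:**
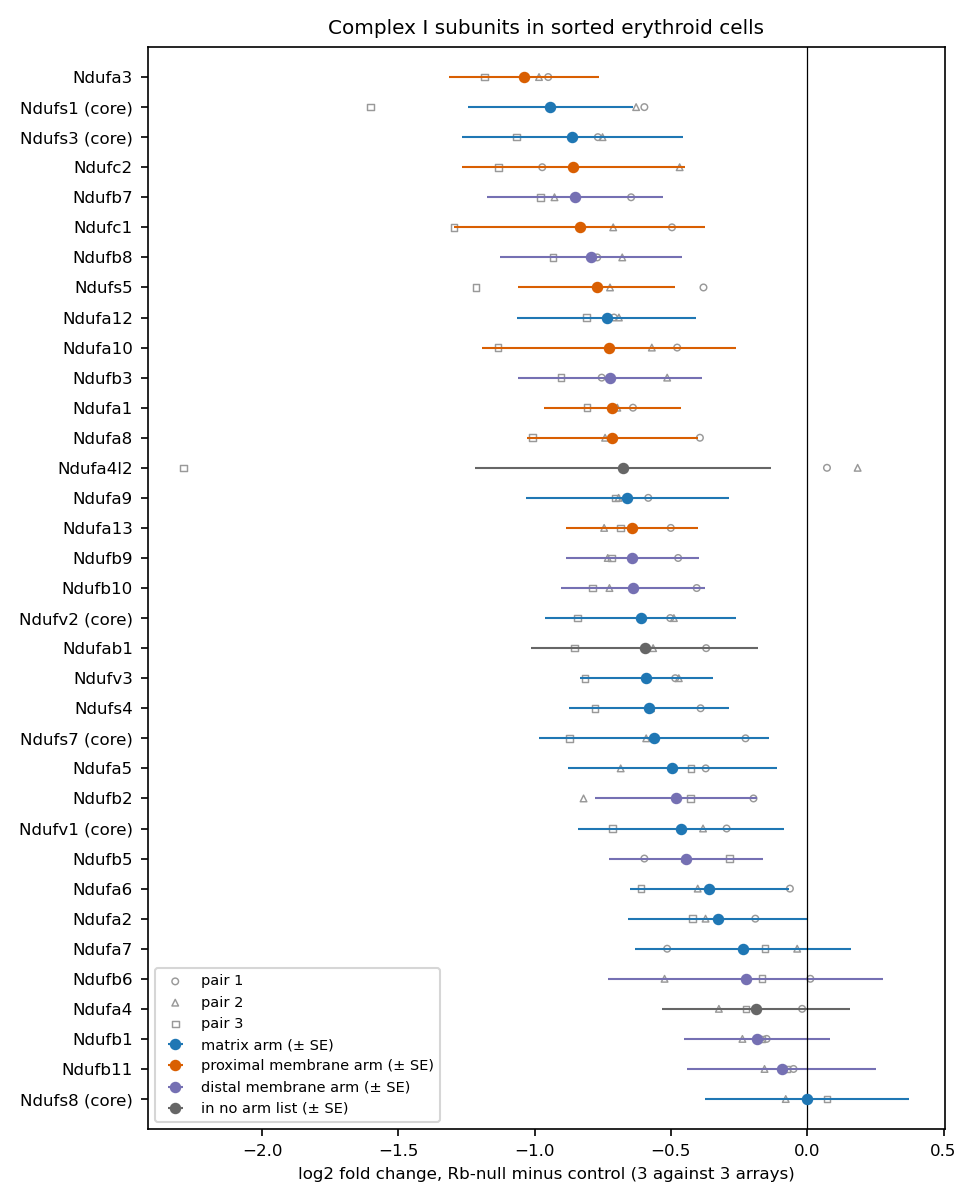
Log2 fold change (Rb-null minus control, x axis) of each of the 35 tested complex I subunits, as the fitted value with its standard error (coloured points and bars, n = 3 arrays a group) and as the difference within each array pair (open symbols). All fitted values lie below 0, from -1.04 for Ndufa3 to -0.00 for Ndufs8, and Ndufa4l2 is the subunit whose pairs lie farthest apart.

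**Figure D2:**
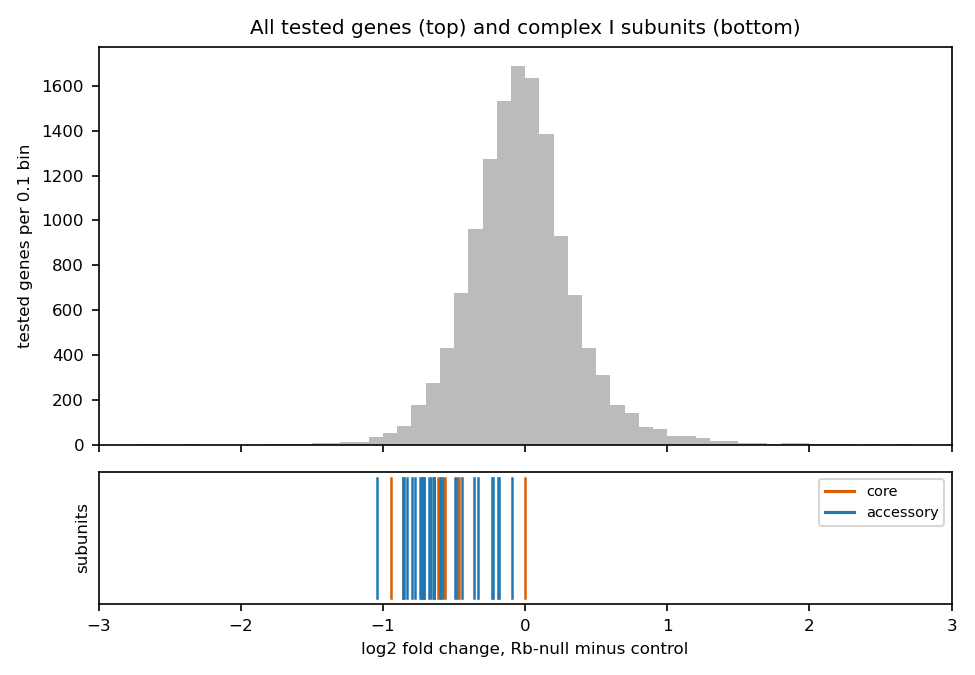
Histogram of the log2 fold changes of all 13232 tested genes in bins of 0.1 (top, y axis in genes per bin) above 1 line for each complex I subunit (bottom). The subunits, with a median of -0.64, sit on the left flank of a distribution whose median is -0.04.

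The median subunit had a mean intensity of 445, and the 1506 tested genes at least that bright had a median log2 fold change of 0.00, with 49.9% of them negative and 35.1% lower in each pair. The 18 subunits in that range had a median of -0.63. Among the subunits, the 17 brighter ones had a median of -0.64 and the 18 dimmer ones -0.63.

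Markers of other blood cells were also lower in part, and in bulk RNA fewer cells of a type and less RNA per cell cannot be told apart. All 10 granulocyte markers had negative log2 fold changes, with a median of -0.51 and pair medians of -0.92, -0.01 and -0.61 for pairs 1, 2 and 3. Their summed intensity was 36539 to 48149 in controls and 26625 to 47962 in Rb-null samples. Of 8 macrophage markers 7 were negative (pair medians -0.41, 0.10 and -1.01, summed intensity 1252 to 2596 and 1089 to 1558). In pair 2, where granulocyte and macrophage medians were -0.01 and 0.10, the complex I median was -0.57. Of 6 tested B cell markers 5 were negative, and their pair medians of -0.62, -0.20 and -0.57 were below 0 in each pair, as for complex I. Cd79b, at -1.09 (SE 0.44), and Ms4a1, at -0.68 (SE 0.29), did not overlap between the groups. B cell markers summed to 358 to 854 in controls and 206 to 487 in Rb-null samples, the 4 of T and NK cells to 373 to 550 and 314 to 498, and the 3 of megakaryocytes to 251 to 597 and 237 to 382. No tested marker was at 0, and the lowest value was 6.75, for Cd163. Actin 3′ over 5′ signal, a ratio that reflects RNA quality, was 1.67, 1.15 and 1.18 in controls and 1.43, 1.10 and 1.01 in Rb-null samples. It was lower in each pair. The same ratio for Gapdh was 1.16, 1.34 and 0.948 in controls and 1.17, 1.38 and 0.737 in Rb-null samples, lower in pair 3 alone. The part of these cell markers and ratios in the result was not tested.

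Promoters of the subunits are shown because the genes were lower together. Such genes are known to share binding sites for the nuclear respiratory factor NRF1, for GABP of the ETS family and for YY1. RefSeq windows (build GRCm38.p6) from 250 bases before to 50 after the gene start were held for 32 of the 36 genes, 34 windows in all, and were searched on both strands. The windows of the 13232 tested genes, 13477 in number, and all 32817 windows served as background. The NRF1 motif, GCGCA followed by any base and GCGC, lay in 6 subunit windows (17.6%, in Ndufa5, Ndufa6, Ndufa8, Ndufb4 and Ndufs5, with 2 overlapping windows of Ndufa5 holding 1 site), against 8.59% of tested genes' windows and 4.59% of all. The ETS motif CCGGAAG lay in 4 (11.8%, in Ndufb6, Ndufb7, Ndufs3 and Ndufs8, against 15.2% and 8.86%), and the GC box GGGCGG of SP1 in 16 (47.1%, against 56.9% and 35.6%). The YY1 motif AAGATGGC lay in 6 (17.6%, against 3.91% and 2.74%). The letters TTTGGCGC, TTTCCCGC, TTTGGCGG and TTTCCCGG, searched for E2F, were in 0 of 34 windows, against 5.36% of tested genes' windows and 3.32% of all. TCAAGGTCA, for the receptor ERR, and AGATAAG, for GATA factors, were also in none (0.304% and 2.09% of tested genes' windows). A match is a description of letters and not a bound site.

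The 6 YY1 matches are shown because they share their place and strand. Each lay on the gene's own strand, with its first base 23 to 39 bases after the gene start, counted from 1 at the start. The motif contains ATG, the letters of a start codon, and whether these matches are translation starts was not tested. Stretches of 30 bases from RefSeq are printed 5′ to 3′ with the motif in capitals.
Ndufa3: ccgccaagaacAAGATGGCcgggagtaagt
Ndufa9: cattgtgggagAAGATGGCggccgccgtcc
Ndufb8: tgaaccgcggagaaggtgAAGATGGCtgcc
Ndufc1: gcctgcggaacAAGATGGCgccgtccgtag
Ndufs4: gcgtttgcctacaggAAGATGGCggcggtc
Ndufs7: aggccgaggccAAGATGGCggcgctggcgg
They lie at chr7:3617384-3617413 (plus strand) for Ndufa3, chr6:126849097-126849126 (minus) for Ndufa9, chr19:44555393-44555422 (minus) for Ndufb8, chr3:51408915-51408944 (minus) for Ndufc1, chr13:114388045-114388074 (minus) for Ndufs4 and chr10:80249462-80249491 (plus) for Ndufs7. The median log2 fold change was -0.73 for these 6 genes and -0.60 for the 25 other tested subunits with a window. For NRF1 it was -0.60 with a match (4 tested genes) and -0.61 without (27), and for the ETS motif -0.54 with (4) and -0.61 without (27). The subunits with and without these motifs were lower alike in sign, and no test was made of these differences.

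Upstream sequences are printed for Ndufa3, the subunit with the lowest p, and for 3 subunits that carry an NRF1 or an ETS motif before the start, Ndufs5, Ndufs3 and Ndufb7. Each run covers the 250 bases before the gene start, 5′ to 3′ on the gene's strand, with matches to the NRF1, ETS and GC box motifs on either strand in capitals.
Ndufa3: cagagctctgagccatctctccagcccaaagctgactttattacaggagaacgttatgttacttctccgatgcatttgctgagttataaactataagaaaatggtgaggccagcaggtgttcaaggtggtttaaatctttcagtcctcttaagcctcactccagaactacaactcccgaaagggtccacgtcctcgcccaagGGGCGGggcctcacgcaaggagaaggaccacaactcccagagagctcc
Ndufs5: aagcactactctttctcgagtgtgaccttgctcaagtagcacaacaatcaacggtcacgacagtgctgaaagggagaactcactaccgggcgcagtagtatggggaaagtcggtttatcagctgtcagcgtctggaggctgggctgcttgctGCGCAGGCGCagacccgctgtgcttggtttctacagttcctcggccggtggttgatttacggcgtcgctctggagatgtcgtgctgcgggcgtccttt
Ndufs3: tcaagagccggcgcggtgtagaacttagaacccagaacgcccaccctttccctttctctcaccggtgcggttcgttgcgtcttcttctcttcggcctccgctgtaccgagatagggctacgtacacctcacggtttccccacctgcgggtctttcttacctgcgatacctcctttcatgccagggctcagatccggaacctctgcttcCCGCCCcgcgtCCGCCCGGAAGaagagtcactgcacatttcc
Ndufb7: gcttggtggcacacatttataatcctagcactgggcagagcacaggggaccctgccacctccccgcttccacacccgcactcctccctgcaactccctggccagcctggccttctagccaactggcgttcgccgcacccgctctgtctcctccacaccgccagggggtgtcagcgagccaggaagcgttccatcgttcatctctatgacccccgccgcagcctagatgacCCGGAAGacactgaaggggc
In GRCm38.p6 these lie at chr7:3617123-3617372 (plus strand), chr4:123718187-123718436 (minus), chr2:90904722-90904971 (minus) and chr8:83566508-83566757 (plus). The ETS motif began 27 bases before the start in Ndufs3 and 20 bases before it in Ndufb7, and the NRF1 motif 98 bases before it in Ndufs5. Ndufa3, the subunit with the largest difference, held a GC box but no NRF1 or ETS match in this stretch.

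Among the core subunits of the electron path, the NADH end was lower in Rb-null cells in each pair on the probe sets used. Ndufv1 binds NADH and the flavin, and read 627, 839 and 456 in controls and 508, 640 and 271 in Rb-null cells. Each Rb-null array lay below its partner, but the groups overlapped, and the log2 fold change was -0.46 (SE 0.38). Its other probe sets stood at -0.15, lower in 2 of 3 pairs, and at -0.31, lower in all 3. Without Rb-null replicate 3 the value on the probe set used was -0.12. Ndufv2, which holds an iron-sulfur cluster beside it, read 574, 1080 and 932 in controls and 400, 765 and 512 in Rb-null cells, at -0.61 (SE 0.35), and at -0.75 and -0.54 on its other probe sets. Ndufs1, which carries further iron-sulfur clusters along the arm, read 400, 429 and 476 in controls and 259, 272 and 146 in Rb-null cells. Its groups did not overlap, Rb-null array 3 stood lowest, and the log2 fold change was -0.94 (SE 0.30, limma adjusted p = 0.857). The pair differences of Ndufs1 were -0.60, -0.63 and -1.60, so they were widest in pair 3.

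Closer to ubiquinone, Ndufs3 and Ndufs7 were lower in each pair while Ndufs8 was not on the probe set used. Ndufs3, a scaffold of the ubiquinone module and bearer of the ETS motif printed above, read 282, 438 and 210 in controls and 159, 254 and 91.9 in Rb-null cells. Its pair differences of -0.77, -0.75 and -1.07 were close to each other although the levels of the arrays differed, and the log2 fold change was -0.86 (SE 0.40). Ndufs7, which carries the last iron-sulfur cluster before ubiquinone, read 185, 505 and 420 and then 156, 330 and 223, at -0.56 (SE 0.42) and, on its other probe set, -0.48, with overlapping groups. With 1 array left out Ndufs3 ran from -1.18 to -0.53, both without an Rb-null array (replicates 2 and 3), and Ndufs7 from -0.99 to -0.29, both without a control (replicates 1 and 2). Ndufs8, which holds the pair of clusters before that one, read 2839, 2019 and 3955 in controls and 2839, 1911 and 4160 in Rb-null cells, at -0.00 (SE 0.37). Its sign turned with the scaling, to 0.0382 on the deposited scaling and 0.0388 with arrays scaled to a common median.

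The value of Ndufs8 depended on which probe set stood for the gene. The one used was the brightest, with a mean of 2829 taken on the log2 scale, and its identifier carries the suffix x_at, which marks probe sets with probes that can match other sequences. That suffix is also on 2 of the gene's other probe sets, at -0.60 and -0.74, and on those used for Ndufa3, Ndufa12 and Ndufv1. The other 5 had means of 234 to 469 and log2 fold changes of -0.80 to -0.46, each lower in all 3 pairs. Averaged over its probe sets, Ndufs8 stood at -0.52. The same averaging moved Ndufa7 from -0.24 to -0.55, its other 4 probe sets standing at -0.80 to -0.38. It moved Ndufa10 from -0.73 to -0.22 and Ndufv1 from -0.46 to -0.31. In sign most probe sets agreed among themselves: of 67 probe sets of subunits past the filter 66 were negative (98.5%, against 52.4% of all named probe sets past it). Of 19 subunits with more than 1 such probe set, 1 had signs that disagreed, whereas 46.2% of 5415 genes did. That subunit was Ndufa10, whose second probe set was dim (mean 21.9) and stood at 0.30 (SE 0.37). Signs differ more readily in genes whose difference lies near 0, as for most tested genes. The sign counts therefore follow in part from the lower values of the subunits, and they do not measure agreement in size.

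**Figure D3:**
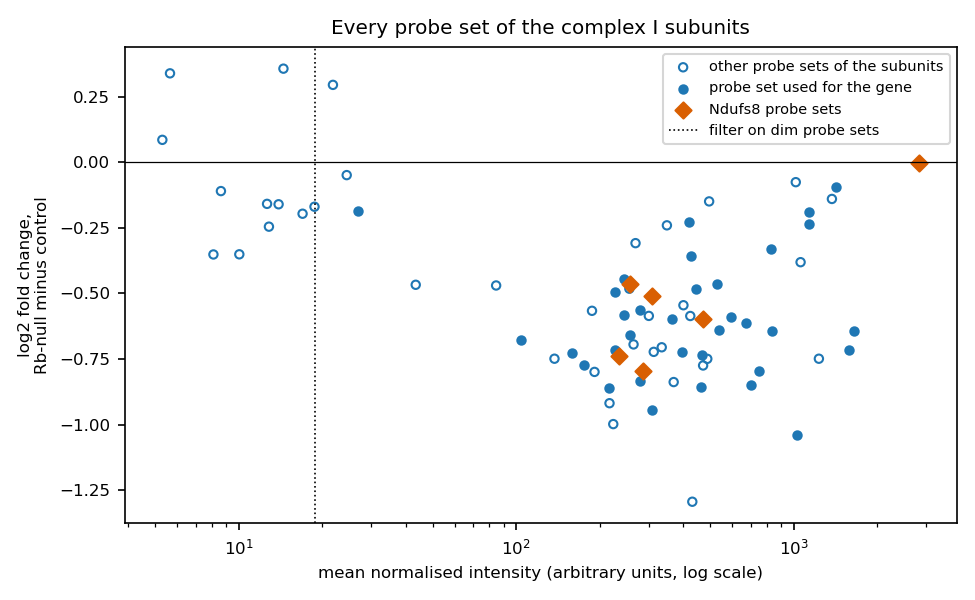
Mean normalised intensity (x axis, log scale) and log2 fold change (y axis) of every probe set of the complex I subunits, with the probe set used for each gene filled and those of Ndufs8 as diamonds. Of the Ndufs8 probe sets, 5 lie between -0.80 and -0.46, and the brightest one, at a mean of 2829, lies at -0.00.

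Core and accessory subunits were lower by like amounts. The median log2 fold change was -0.59 over the 6 core subunits and -0.64 over the 29 tested accessory ones, a difference of 0.05. That difference was 0.07 in pair 1, 0.03 in pair 2 and -0.07 in pair 3, so its sign was not stable, and it ran from -0.20 without control replicate 1 to 0.16 without control replicate 2. Of the core subunits 5 of 6, and of the accessory ones 27 of 29, were lower in each pair. All 6 core subunits lie in the matrix arm, and the tested subunits of the membrane arm are all accessory. Class and place in the complex are therefore mixed in this difference, which does not compare the classes over the whole complex. Members of 1 complex on the same arrays are not replicates, so the difference was described and not tested.

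By place in the complex, subunits of the proximal membrane arm had the lowest median. Its 8 tested subunits, Ndufa1, Ndufa3, Ndufa8, Ndufa10, Ndufa13, Ndufc1, Ndufc2 and Ndufs5, ran from -1.04 to -0.64 with a median of -0.75, and all 8 were lower in each pair. The 14 of the matrix arm had a median of -0.57 and the 10 of the distal membrane arm -0.56, with ranges of -0.94 to -0.00 and -0.85 to -0.09. Pair medians for the proximal arm were -0.50, -0.72 and -1.13, for the matrix arm -0.44, -0.53 and -0.75, and for the distal arm -0.44, -0.60 and -0.57. In each pair the proximal arm had the lowest median of the 3 arms, a description that was not tested.

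Within the proximal membrane arm, Ndufa3 had the largest difference of all subunits. This small membrane protein read 1263, 1365 and 1882 in controls and 646, 682 and 819 in Rb-null cells, with means of 1504 ± 332 and 716 ± 91.5 (SD, n = 3). Every Rb-null array lay below every control array, and the signal was 2.06-fold lower, with a log2 fold change of -1.04 (SE 0.27). A second probe set of the gene stood at -1.29. Ndufa1, an X-linked subunit needed to assemble the complex, read 2067, 2149 and 1879 in controls and 1321, 1320 and 1066 in Rb-null cells. Its means were 2032 ± 138 and 1236 ± 147 (SD, n = 3), the spread within groups was small, and the log2 fold change was -0.71 (SE 0.25).

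Ndufa13, also known as GRIM-19 and linked to cell death signalling, had Rb-null values close to each other. It read 952, 1139 and 1051 in controls and 668, 673 and 648 in Rb-null cells, at -0.64 (SE 0.24). Ndufs5, a subunit on the intermembrane side whose upstream NRF1 motif is printed above, read 174, 272 and 272 and then 130, 158 and 108, at -0.77 (SE 0.29). Both had groups that did not overlap. Ndufa8, another intermembrane-side subunit, read 199, 362 and 356 in controls and 147, 210 and 169 in Rb-null cells, at -0.71 (SE 0.31). Control array 1 lay among its Rb-null values, so the groups overlapped. The remaining proximal subunits Ndufc2, Ndufc1 and Ndufa10 had -0.86 (SE 0.41), -0.83 (SE 0.46) and -0.73 (SE 0.47), all with overlapping groups.

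In the distal membrane arm 9 of 10 tested subunits were lower in each pair, all but Ndufb6. Ndufb9 read 1940, 2254 and 1995 in controls and 1393, 1351 and 1205 in Rb-null cells, at -0.64 (SE 0.24). Ndufb7, whose ETS motif is printed above, read 802, 1316 and 801 and then 506, 685 and 399, at -0.85 (SE 0.32). Ndufb10 read 612, 795 and 632 and then 458, 475 and 359, at -0.64 (SE 0.26). In these 3 structural subunits no Rb-null array reached the lowest control. Ndufb8, whose loss is a common sign of unassembled complex I, read 968, 1283 and 778 in controls and 561, 795 and 400 in Rb-null cells. Its difference was -0.79 (SE 0.33), with Rb-null array 2 just above control array 3. Ndufb3 read 612, 571 and 387 and then 356, 395 and 199, at -0.72 (SE 0.34), again lower in each pair with overlapping groups. Ndufb2 and Ndufb5 had -0.48 (SE 0.30) and -0.44 (SE 0.28). At the other end of the arm stood Ndufb11 at -0.09 (SE 0.35), the dim Ndufb1 at -0.18 (SE 0.27) and Ndufb6 at -0.23 (SE 0.50). The signs of Ndufb11 and Ndufb6 turned when single arrays were left out. Ndufb4, measured at 6.52 to 21.0 on its only probe set with 1 gene symbol, was too dim to be tested. Its 2 other probe sets carry several gene names and were not used, so its level is not known here.

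The accessory subunits of the matrix arm were all lower in each pair. Ndufv3, a small partner of the flavin subunit, read 684, 730 and 789 in controls and 485, 522 and 442 in Rb-null cells, at -0.59 (SE 0.24), without overlap. Ndufa12 read 638, 773 and 453 and then 384, 473 and 252, at -0.74 (SE 0.33). Its pair differences of -0.71, -0.69 and -0.81 were close to each other while the arrays themselves differed in level. Ndufs4, a subunit whose loss causes mitochondrial disease, had -0.58 (SE 0.29) with groups that did not overlap. The arm's other accessory subunits ran from -0.66 (SE 0.37) for Ndufa9, which lies near the ubiquinone site, to -0.24 (SE 0.40) for Ndufa7. The sign of Ndufa7 turned without Rb-null replicate 2.

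The members not listed under any arm were mixed. Ndufab1, the mitochondrial acyl carrier protein, which serves lipoate and iron-sulfur cluster synthesis as well as complex I, read 346, 727 and 361 in controls and 264, 486 and 193 in Rb-null cells. It was lower in each pair, with overlapping groups and a log2 fold change of -0.60 (SE 0.42). Ndufa4, named as a complex I subunit but now counted with complex IV, had -0.19 (SE 0.35), and its sign turned without control replicate 2. Its paralog Ndufa4l2, a gene induced by hypoxia in other cells, read 154, 96.3 and 169 in controls and 163, 112 and 21.8 in Rb-null cells. Only Rb-null array 3 was low, and without both arrays numbered 3 the difference was 0.13. Leaving out both Ndufa4 genes, the other 27 accessory subunits had a median of -0.64.

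**Figure D4:**
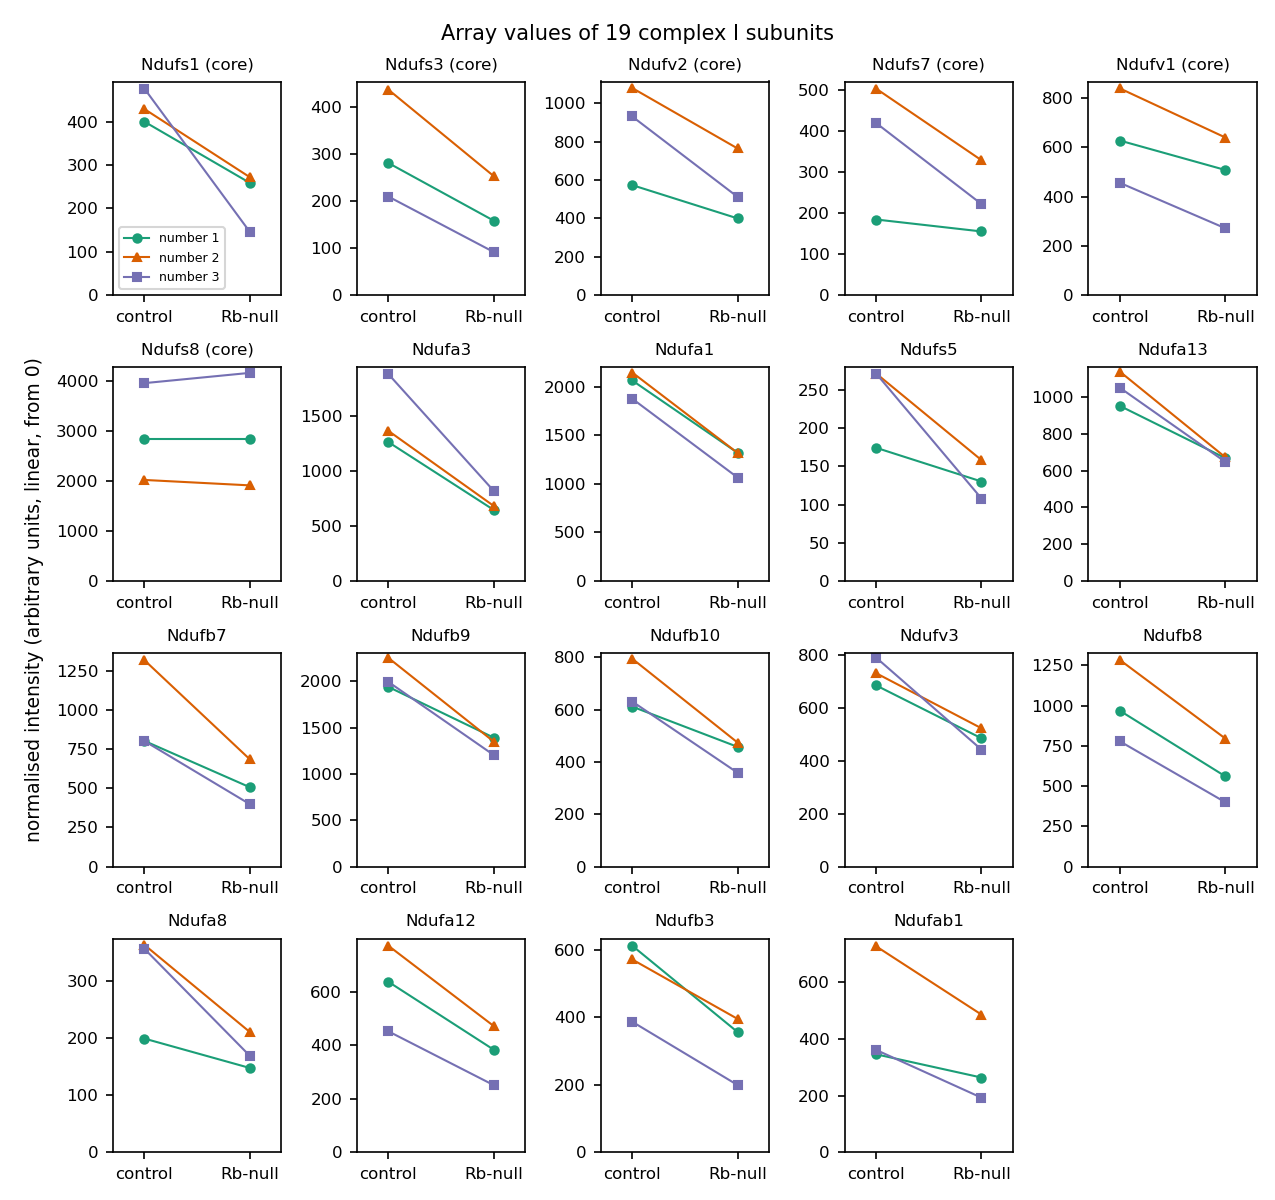
Normalised intensity (y axis, linear from 0, arbitrary units) of 19 complex I subunits on each array, with lines joining the control and Rb-null arrays of the same number. Lines slope down in every panel except that of Ndufs8, whose values of 2839, 2019 and 3955 in controls and 2839, 1911 and 4160 in Rb-null cells stay nearly level.

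Assembly factors and the other respiratory complexes had smaller median differences. The 15 tested assembly factors, which build complex I without staying in it, had a median of -0.32, with 11 negative and 4 positive and 0 past limma's test over all genes. Those with the lowest p were Ndufaf8 at -0.63 (SE 0.33), Ndufaf7 at -0.46 (SE 0.29) and Ndufaf1 at -0.65 (SE 0.47). The assembly factors were dimmer, with array means of 5.88 to 6.58 on the log2 scale, against 8.28 to 9.40 for complex I subunits. Whether this made their differences smaller was not tested. The 4 subunits of complex II, which feeds ubiquinone from succinate, had a median of -0.46, led by Sdha at -0.69 (SE 0.31), Sdhb at -0.57 (SE 0.26) and Sdhc at -0.34 (SE 0.26). Complex III, which passes electrons to cytochrome c, had a median of -0.47 over 9 genes, with Uqcrq at -0.64 (SE 0.31), Uqcrc2 at -0.81 (SE 0.43) and Uqcr11 at -0.59 (SE 0.32). Cytochrome oxidase, complex IV, had -0.25 over 8 genes, with Cox6c at -0.74 (SE 0.32), Cox6b1 at -0.46 (SE 0.31) and Cox7a2 at -0.26 (SE 0.24). ATP synthase had -0.36 over 16 genes, with Atp5k at -0.90 (SE 0.36), Atp5l at -0.71 (SE 0.34) and Atp5j at -0.59 (SE 0.31). In these 4 complexes 0 genes passed limma's test over all genes, and at an unadjusted p under 0.05 it found 1, Atp5k. With the replicate block, a variance trend and robust moderation limma called 1 gene of complex II, 2 of complex III, 0 of complex IV and 3 of ATP synthase, all lower, and 0 assembly factors. With the plain block an unadjusted p under 0.05 was found, always lower, for 2 of 4, 7 of 9, 3 of 8 and 8 of 16 genes of these complexes in turn, and for 3 assembly factors. In each pair 3 of 4, 8 of 9, 8 of 8 and 14 of 16 genes were lower.

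The complex I median lay below those of assembly factors and of complexes III, IV and ATP synthase in each of the 3 pairs. For complex III the pair medians were -0.39, -0.49 and -0.54, for complex IV -0.20, -0.27 and -0.32, and for ATP synthase -0.23, -0.38 and -0.40. Complex II was an exception, with -0.54 in pair 1 against -0.47 for complex I, and -0.38 and -0.44 in pairs 2 and 3. These comparisons rest on the same arrays, and the differences between complexes were not tested.

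**Figure D5:**
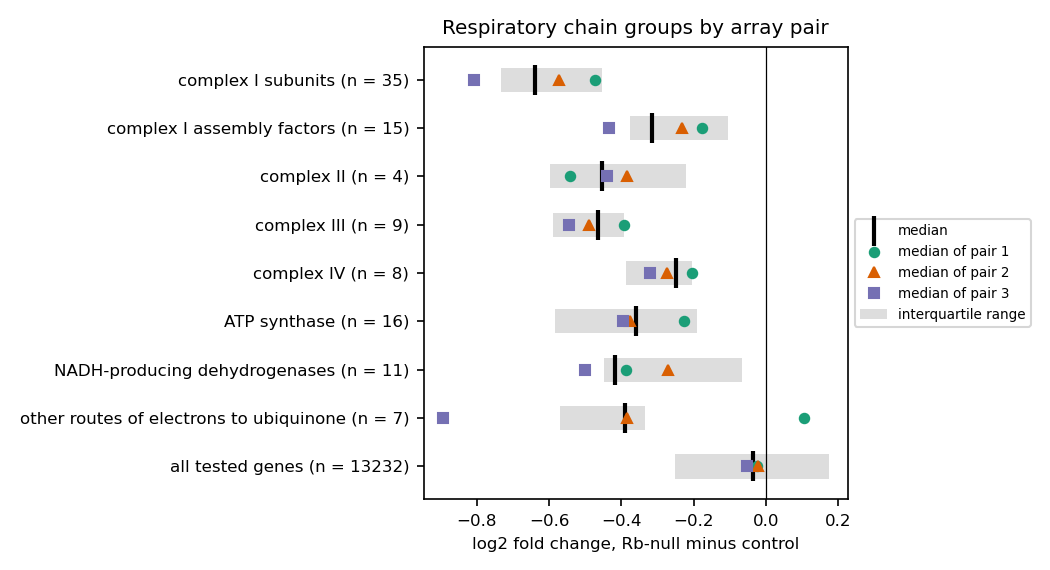
Log2 fold change (x axis, Rb-null minus control) of complex I subunits beside assembly factors, the other respiratory complexes, routes that supply them and all tested genes, with the median (line), the interquartile range of genes (bar) and the median of each array pair (symbols). Complex I has the lowest median, -0.64, against -0.25 to -0.47 for complexes II, III and IV and ATP synthase and -0.04 for all tested genes.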

How the data were processed

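The authors deposited 1 value per probe set and array, and these values were assumed to be linear intensities. Per the labels, RNA came from Trizol and QIAGEN columns and was biotin-labelled, but summarisation and scaling were not given in the sources used here. Of 45101 probe sets, 64 controls, 4 empty ones and 1 exceeding a 16-bit range were removed. Array medians of log2(intensity + 16) differed by up to 0.264, above the limit of 0.2, so arrays were quantile normalised. Dim probe sets, under the 40th percentile of the mean (log2 5.12, intensity 18.9), were dropped, and the brightest probe set with 1 gene symbol stood for each gene. Groups were compared in R 4.3.3 with limma 3.58.1, and the fit was tested on simulated data. An exact permutation test of 3 against 3 arrays cannot go below p = 0.1. Arrays of the same number deviated together from their group means (correlations across genes of 0.636, 0.615 and 0.653, at most 0.0370 between different numbers), so fits with that number as a block were added, although no label says what it stands for. Array values were given for the core subunits, the 12 accessory subunits with the lowest p and Ndufab1, and for Ndufa4l2, which was added after its values were seen. Of each other list the 3 genes with the lowest p were named. The members and lists were chosen with earlier results of these data known. Alternatives covered scaling, offset, filter, probe set choice, block, variance model, array weights and left-out arrays.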

Additional observations from a re-analysis of the deposited data

How the results depend on the processing

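The complex I median kept its direction under all 17 alternatives, from -0.76 to -0.48, both values from fits with 1 array left out (without Rb-null replicate 2 and without control replicate 2). Among the 17, fits with the replicate block cannot alter a fold change in this balanced design, and they gave -0.64 like the main fit. Counts of calls by limma depended on the setting. An offset of 64 gave 2 genes and array weights gave 3, none of them a subunit, and the replicate block with a variance trend and robust moderation gave 473 genes and 11 subunits, while the replicate block alone gave 0 of either. The difference between core and accessory medians, 0.05, ran from -0.20 to 0.16 in fits with 1 array left out. Ndufs8 stood at 0.0382 on the deposited scaling and 0.0388 with median scaling, and at -0.28 to 0.28 with 1 array left out. With 1 array left out Ndufb11 ran from -0.36 to 0.14, Ndufb6 from -0.67 to 0.20, Ndufa4 from -0.45 to 0.0772 and Ndufa7 from -0.60 to 0.0270, and without both arrays numbered 3 Ndufa4l2 stood at 0.13. The cause was not tested in any of these. Of the other values of single subunits, 572 kept their sign and their side of the threshold. These include values from fits with the replicate block, where the sign could not change.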

Other observations

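Genes that feed electrons to the chain beside complex I were lower in part. Of 11 dehydrogenases that supply NADH in the matrix, 9 had negative log2 fold changes, with a median of -0.42 and pair medians of -0.39, -0.27 and -0.50. Idh3b and Idh3g, subunits of isocitrate dehydrogenase, had -0.69 (SE 0.33) and -0.42 (SE 0.28), and malate dehydrogenase Mdh2 had -0.46 (SE 0.31). Of 7 genes of other routes to ubiquinone all were negative, with a median of -0.39, but the pair medians of 0.10, -0.38 and -0.89 differed in sign. The sulfide oxidase Sqor had -0.71 (SE 0.41), and Etfa and Dhodh, of electron transfer from fatty acids and of pyrimidine synthesis, had -0.38 (SE 0.28) and -0.66 (SE 0.51). For Dhodh the pair differences were 0.22, 0.29 and -2.50, so its value rests on pair 3, where Rb-null array 3 read 9.12 and control array 3 read 126. No gene of either list passed limma's test over all genes, and 0 had an unadjusted p under 0.05.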
